A study of Homo sapiens with 6 samples.

Results

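The genes described here are the 70 protein-coding human histone genes of the replication-dependent set, of 78686 genes listed in the tables. They were taken by symbol, as H1-1 to H1-6 and every gene whose symbol starts with H2AC, H2BC, H3C or H4C and a digit. The rule uses no measured value, but the set was chosen with earlier results of these data known. They comprise 6 linker histone H1 genes, 17 H2A genes, 19 H2B genes, 13 H3 genes and 15 H4 genes. The samples were THP-1 cells, an established human monocytic leukaemia line, stably transduced to overexpress PTX4 (PTX4-OE, 3 libraries) or transduced with an empty vector (EV, 3 libraries). PTX4 is a secreted protein of the pentraxin family. Total RNA of both groups was enriched for poly(A) RNA on oligo(dT) beads before sequencing, and the labels number the replicates 1 to 3 within each construct and give all 6 libraries the same batch. Whether each transduced line is a pool or a clone, which promoter drives the construct, and what same-numbered replicates share are not given in the sources used here.

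Replication-dependent histone genes supply the core and linker histones that package newly made DNA, and they are transcribed mainly in S phase. Their mRNAs end in a conserved stem-loop instead of a poly(A) tail: the stem-loop binding protein SLBP and the U7 small nuclear ribonucleoprotein direct a cut just after it. Some of these genes can also give transcripts that run past the stem-loop and are cut and polyadenylated further downstream, a form known from differentiated and non-dividing cells. A library made from poly(A) RNA holds the tailed transcripts and whatever untailed RNA is carried along, so its values are not the amount of histone mRNA in the cells.

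The stem-loop is the sequence that separates these genes from other genes in such a library, so it is shown first. On the hg38 genome, 65 of the 70 genes (92.9%) held a match to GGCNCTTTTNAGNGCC on the coding strand within 200 bases after the stop codon of GENCODE release 44, against 3 of 19854 other protein-coding genes (0.0151%), namely H2AX, H3-4 and H3-7. The match began 23 to 68 bases after the stop codon, with a median of 36. The 65 matches took 6 forms, each shown here for a gene named below, as DNA from 5′ to 3′ with the 2 arms of the stem in capitals and the loop in lower case.
H2BC21 at chr1:149886188-149886203, minus strand: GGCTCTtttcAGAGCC
H4C3 at chr6:26104317-26104332, plus strand: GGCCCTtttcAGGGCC
H2BC12 at chr6:27146366-27146381, minus strand: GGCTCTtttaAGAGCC
H4C14 at chr1:149833032-149833047, plus strand: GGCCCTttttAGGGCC
H2AC11 at chr6:27133515-27133530, plus strand: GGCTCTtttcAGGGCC
H2AC20 at chr1:149887391-149887406, plus strand: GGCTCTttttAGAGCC
The form of H2BC21 was shared by 40 genes, among them H2BC9, H2BC26, H2AC6, H2AC18 and H1-2. The form of H4C3 was found in 10 genes and that of H4C14 in 4 genes, all of the H4 family. The form of H2BC12 was found in 9 genes, including H2BC5 and H2BC11. The forms of H2AC11 and H2AC20 were each found in 1 gene. The 5 genes without a match were H2AC15, H2BC10, H2BC12L, H3C6 and H4C13.

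The annotation divides the 65 genes by what lies past the stem-loop. For 16 genes GENCODE release 44 has a transcript that ends more than 50 bases past it, and these are called extended genes here. They are H2AC1, H2AC6, H2AC25, H2BC4, H2BC5, H2BC6, H2BC11, H2BC15, H2BC18, H2BC21, H2BC26, H3C10, H4C8, H4C14, H4C15 and H4C16. For the other 49 genes all annotated transcripts end within 50 bases of the stem-loop. H2BC21 (chr1:149884459-149886682, minus strand) is the 1 whose main transcript itself runs on, for 1729 bases past the stem-loop. Other extended genes have a second annotated transcript that ends far away, as H2AC6 (chr6:26124145-26139116, plus strand) and H2BC26 (chr1:228458103-228463104, plus strand) do. The main transcript of all 70 genes has a single exon, and its median length is 487 bases. The poly(A) signals AATAAA or ATTAAA were present on the coding strand within 50 bases past the stem-loop in 5 of 65 genes (7.69%), H1-2, H2AC4, H2AC18, H2AC19 and H2BC5. In other protein-coding genes a window of the same length, starting 51 bases after the stop codon, held one in 6.89%.

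Most of the genes lie in clusters. At 6p22 there are 55 genes, at 1q21 there are 11, at 1q42 there are 2, and 1 each lies at 12p12 and 21q22. Within the clusters 13 pairs of neighbours start on opposite strands within 1000 bases of each other, 12 of them an H2A gene beside an H2B gene. The promoter of H2BC21 is shown because it lies between the start sites of H2BC21 and H2AC20, 236 bases apart, whose values moved in opposite directions between replicate numbers. The promoter of H2BC9 is shown because H2BC9 had the largest decrease of the same comparison. Capitals mark ATTTGCAT (the octamer bound by POU2F1), CCAAT (bound by NF-Y) and TATAAA (the TATA box) on either strand, and no motif overlaps another. Each stretch is 300 bases of RefSeq sequence on GRCh38.p14, 250 bases before to 50 bases after the start, in the direction of the gene.
H2BC21 at chr1:149886633-149886932, minus strand: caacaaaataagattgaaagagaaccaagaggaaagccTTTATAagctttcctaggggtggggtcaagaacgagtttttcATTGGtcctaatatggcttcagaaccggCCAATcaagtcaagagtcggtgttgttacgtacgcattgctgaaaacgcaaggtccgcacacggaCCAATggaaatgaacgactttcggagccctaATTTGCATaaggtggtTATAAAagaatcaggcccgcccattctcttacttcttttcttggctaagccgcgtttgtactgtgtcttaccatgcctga
H2BC9 at chr6:26251364-26251663, plus strand: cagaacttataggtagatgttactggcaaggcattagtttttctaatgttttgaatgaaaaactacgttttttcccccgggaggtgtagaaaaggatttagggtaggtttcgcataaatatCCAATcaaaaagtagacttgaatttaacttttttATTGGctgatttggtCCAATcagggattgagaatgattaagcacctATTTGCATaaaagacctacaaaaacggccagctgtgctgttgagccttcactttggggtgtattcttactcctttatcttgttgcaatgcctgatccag
RefSeq promoters were matched for 64 of the 70 genes. The octamer was found in 26 of the 64 (40.6%), against 1.77% of all 35116 promoters in the table. It was found in 11 of 16 H2A and 14 of 18 H2B promoters, in 1 of 11 H3 promoters, in 0 of 6 H1 promoters and in 0 of 13 H4 promoters. CCAAT was found in 54 of the 64 (84.4%, against 34.6% of all promoters) and TATAAA in 42 (65.6%, against 11.5%). Matches of this kind describe the letters present and say nothing of binding in these cells.

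The total expected count was 31078642 to 37718207 in the PTX4-OE libraries and 29670641 to 32691577 in the EV libraries. PTX4 itself had 24633, 14398 and 15782 expected counts in PTX4-OE replicates 1 to 3, against 0, 3 and 4 in EV replicates 1 to 3. The 12 markers of the monocytic line all had a mean of at least 1 TPM, and their summed level was 783 to 957 TPM in PTX4-OE and 827 to 922 TPM in EV libraries. Of 19 markers of other cell types, 10 were at 0 in every library, EPCAM, CD3E and HBB among them, and the list summed to 24.4 to 28.6 TPM in PTX4-OE and 28.7 to 33.4 TPM in EV libraries, most of it PECAM1. PTX4-OE replicate 1 stood apart in mitochondrial mRNA, with a summed 64574 TPM, against 106990 to 131320 TPM in the other 5 libraries. EV replicate 2 stood apart in the summed level of 30 genes for RNAs that carry no poly(A) tail, mainly RN7SL1 and RN7SL2, with 798 TPM, against 1574 to 2074 TPM in the other 5 libraries.

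Poly(A) RNA of these cells held little histone mRNA of the replication-dependent kind. The 70 genes took 0.00327%, 0.00364% and 0.00541% of expected counts in PTX4-OE replicates 1 to 3, against 0.00356%, 0.00357% and 0.00502% in EV replicates 1 to 3. Per length, on the TPM scale of transcripts adjusted for length and depth, they summed to 172, 163 and 218 TPM in PTX4-OE replicates 1 to 3, against 178, 185 and 194 TPM in EV replicates 1 to 3. The means were 184 ± 29.6 TPM in PTX4-OE and 185 ± 7.91 TPM in EV libraries (SD, n = 3 each), and the groups overlapped. The 20 listed genes for replication-independent histone variants, whose mRNAs mostly carry tails, summed to 3053 to 3896 TPM in PTX4-OE and 3045 to 3672 TPM in EV libraries. Of the 70 genes, 43 were above 0 in every library, 25 had a mean of at least 1 TPM and 7 had at least 10 TPM. The 7 genes H1-1, H1-6, H2AC1, H2BC1, H2BC12L, H4C7 and H4C11 were at 0 in every library; a count of 0 allows up to 3 reads, 0.0795 to 0.101 CPM (counts scaled to library depth) in these libraries, for counting error only. The top 5 genes held 53.8% of the summed mean TPM and the top 10 held 74.8%.

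The H2A genes, which encode a core histone of the outer nucleosome, held 43.1% of the summed mean TPM. H2AC20 (chr1:149886918-149887411, plus strand) had the highest mean of all 70 genes. It had 44.8, 33.8 and 26.3 TPM in PTX4-OE replicates 1 to 3, against 39.4, 45.8 and 25.1 TPM in EV replicates 1 to 3. Replicate 3 was the lowest of each construct, and the constructs overlapped. H2AC18 (chr1:149842218-149842750, minus strand) had 9.74, 7.36 and 17.4 TPM in PTX4-OE, against 9.47, 14.1 and 26.5 TPM in EV replicates 1 to 3. H2AC25 (chr1:228434777-228457873, minus strand) had 10.7, 10.4 and 18.9 TPM in PTX4-OE, against 10.6, 12.6 and 21.4 TPM in EV replicates 1 to 3. In both of these genes replicate 3 was the highest of each construct.

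The H2B genes, whose product pairs with H2A, held 25.4%. H2BC9 (chr6:26251614-26252075, plus strand) had 26.3, 18.3 and 6.87 TPM in PTX4-OE replicates 1 to 3, against 29.4, 29.0 and 7.47 TPM in EV replicates 1 to 3. Both replicate 3 libraries lay below the other 4. H2BC12 had 10.1, 10.4 and 12.2 TPM in PTX4-OE, against 13.98, 6.91 and 13.8 TPM in EV. H2BC5 had 1.23, 2.48 and 5.41 TPM in PTX4-OE, against 2.18, 2.53 and 3.29 TPM in EV. These ranges overlapped between constructs, and the library ranges of H2AC20 and H2BC9, the 2 highest genes, overlapped as well.

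The H4 genes, which encode a partner of H3 in the nucleosome core, held 21.3%, most of it from 2 copies at 1q21. H4C14 and H4C15 had the same value in every library, 6.83, 11.5 and 32.4 TPM in PTX4-OE replicates 1 to 3, against 6.85, 11.95 and 20.2 TPM in EV replicates 1 to 3, and their expected counts were equal in every library as well, at 22, 32.5 and 104.5 counts each in PTX4-OE, against 19, 27.5 and 61 counts each in EV. They are therefore 1 measurement divided between 2 genes, which enters counts of genes as 2 unless stated. H4C12 had 4.37, 3.83 and 1.15 TPM in PTX4-OE, against 2.29, 3.31 and 0.710 TPM in EV replicates 1 to 3, lowest in replicate 3 of each construct. 

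The H3 genes held 6.37% and the H1 genes 3.78%. H3C13 had 3.61, 3.48 and 5.11 TPM in PTX4-OE, against 1.96, 3.25 and 3.70 TPM in EV. H3C15 had 6.33, 1.90 and 0 TPM in PTX4-OE, against 3.26, 2.71 and 4.25 TPM in EV. H3C14, a near-identical copy, was listed at 3.52 TPM in PTX4-OE replicate 3 and at 0 in the other 5 libraries, and H3C15 was at 0 in that library; how reads were assigned between the copies was not tested. H3C3, the third of the family by mean level, had 0.870, 1.00 and 0.170 TPM in PTX4-OE, against 1.99, 2.73 and 0.570 TPM in EV. Of the linker histones only H1-2 was above 1 TPM in the mean, with 6.40, 4.49 and 6.29 TPM in PTX4-OE, against 6.71, 4.43 and 6.09 TPM in EV, and its values did not separate the constructs. H1-4 had 0.840, 0.490 and 0.420 TPM in PTX4-OE, against 0.790, 0.350 and 0.540 TPM in EV. H1-5 had 0.480, 0.240 and 0.140 TPM in PTX4-OE, against 0.700, 0.420 and 0.530 TPM in EV, and both overlapped between constructs.

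**Figure D1:**
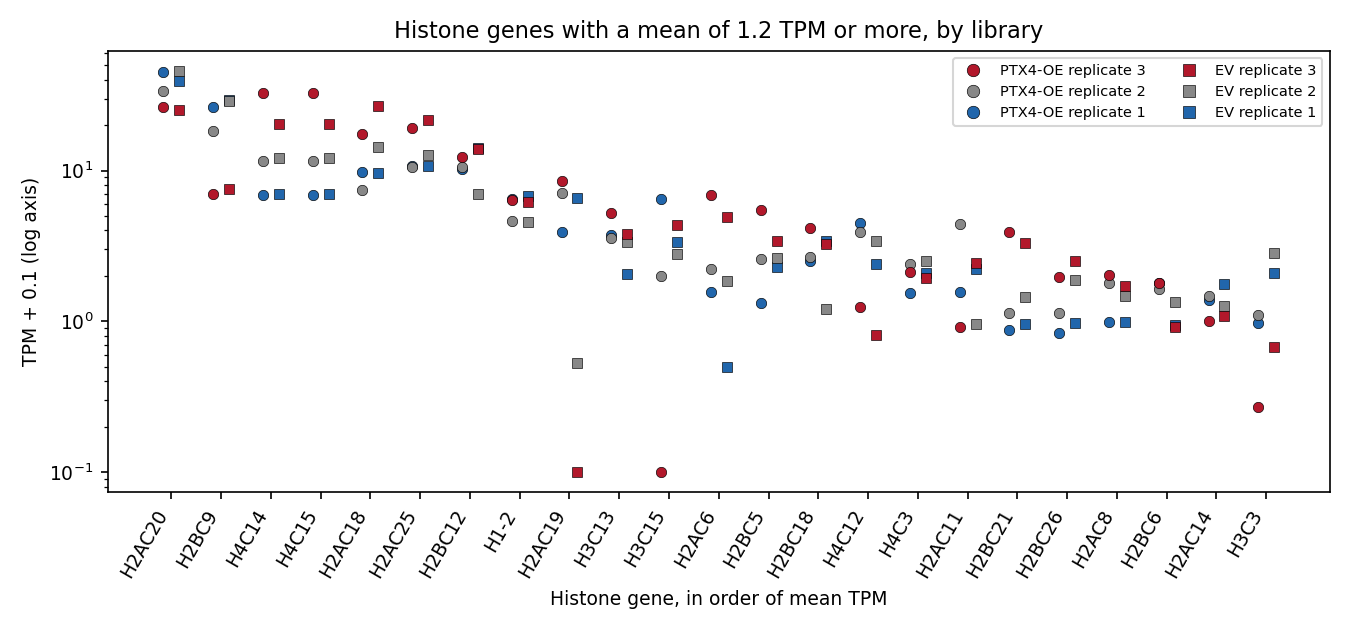
TPM plus 0.1 on a log axis for the histone genes with the highest mean TPM, in order of that mean, with 1 point per library (circles PTX4-OE, squares EV, colour by replicate number). H2AC20 leads at 25.1 to 45.8 TPM, and the 2 replicate 3 libraries sit together at the bottom for H2BC9 and at the top for H4C14, H4C15 and H2AC25.

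The comparison of PTX4-OE with EV asks which genes differ between the cells transduced with PTX4 and those with the empty vector. No histone gene of the set passed its test. Of the 70 genes, 21 had enough counts to be tested, 10 extended genes and 11 annotated to end at the stem-loop. By edgeR's quasi-likelihood test with Benjamini-Hochberg adjustment over all genes, 0 of the 21 were called at an adjusted p under 0.05, against a background of 0.00567% of all 17640 genes tested, which was PTX4 alone. At an unadjusted p under 0.05 the count was 0 of 21 (0.743% of all genes), and DESeq2 and limma called 0 as well. With the replicate number as a block, 0 of the 21 were called and 2 had an unadjusted p under 0.05 (8.8% of all genes), while the calls among all genes became 46 (0.261%). The groups did not overlap in CPM for 0 of the 21, against 4.11% of all genes.

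The log2 fold changes of the 21 genes between constructs had a median of 0.15, beside 0.01 for all genes, and ranged from -0.55 to 1.42. The lowest was that of H2AC18, -0.55 ± 0.44 (SE), and the highest that of its near-identical neighbour H2AC19, 1.42 ± 1.15, each with an edgeR adjusted p of 1. H2AC19 had 33.2, 53.3 and 73.8 expected counts in PTX4-OE replicates 1 to 3, against 49.6, 2.97 and 0 in EV replicates 1 to 3. H2AC18 had 68.8, 45.3 and 124 expected counts in PTX4-OE, against 58.8, 78.0 and 172 in EV replicates 1 to 3. Added together, the pair had 13.5, 14.4 and 25.8 TPM in PTX4-OE, against 15.9, 14.6 and 26.5 TPM in EV, and a log2 fold change of -0.02. H2AC18 had fractional counts in all 6 libraries. The 2 genes with an unadjusted p under 0.05 in the blocked fit were this pair, with adjusted p of 0.459 for H2AC18 and 0.489 for H2AC19. H2AC19 was called, with a log2 fold change of 5.14, in the blocked fit without replicate 1, in which EV held 2.97 and 0 counts.

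The other genes at the ends of the range did not pass the test either. H3C4 had 6, 17 and 12.2 expected counts in PTX4-OE, against 9.71, 8 and 0 in EV, and a log2 fold change of 0.79 ± 0.92 (SE). H2BC11 had 9, 27 and 27 expected counts in PTX4-OE, against 4, 7 and 27 in EV, and a log2 fold change of 0.61 ± 0.74. H2BC9 changed by -0.31 ± 0.63 and H3C15 by -0.29 ± 1.03 on the log2 scale, and both had the opposite sign without PTX4-OE replicate 3, at 0.08 and 0.30. The 95% interval of the fold change lay within 2-fold for 4 of the 21 genes, against 75.5% of all genes, and for 12 of 21 with the replicate block, against 86.2%. A 2-fold difference between constructs was therefore not excluded for the other 17 genes in the fit without the block. H2AC20, the most abundant, had an interval of -0.75 to 0.64 on the log2 scale and H1-2 one of -0.58 to 0.52.

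Between the replicate numbers histone genes differed, and 9 of the 12 called between number 3 and number 1 were extended genes that were higher in number 3, or 8 of 11 with near-identical pairs added together. Deviations from the construct means were positively correlated between same-numbered PTX4-OE and EV libraries over all tested genes, only weakly so for number 2. The number was tested as a factor beside construct on that ground. The correlation and the test use the same values, so the calls are not independent support for a shared factor. Each number holds 1 library per construct. By edgeR's quasi-likelihood F test 13 of the 21 genes were called for replicate number, close to the background of 51.5% of all genes. Between number 3 and number 1, 10 of the 21 were higher and 2 lower, with backgrounds of 25.8% and 28.7%, and with the pairs added together 9 of 19 were higher and 2 lower. Counting only calls over 2-fold, 10 were higher and 1 was lower, against 9.16% and 1.94% of all genes. The median standard error was 0.36 for the 21 genes, beside 0.0997 for all genes. Calls among the 21 therefore tend to need larger differences, and these shares are not like for like. The median log2 difference was 0.93 for the 21 genes, beside 0.03 for all genes, and the median absolute difference was 1.13, beside 0.37. The 3 contrasts share their libraries, so they are not independent. In number 2 against number 1 only H2BC26 was called (background 21.2%), and in number 3 against number 2, 9 were higher (14.1%) and 2 lower (18.6%). Since each library is an RNA extract of many cells, fewer cells carrying an RNA and less of it per cell cannot be told apart.

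Of the 10 extended genes tested, 9 were higher in number 3 than in number 1 and 0 lower, with a median log2 difference of 1.87, or 8 of 9 when H4C14 and H4C15 are counted once. The shares over all genes tested were 25.8% higher and 28.7% lower. H2BC21 had 3.81 (PTX4-OE) and 3.20 (EV) TPM in number 3, 1.03 and 1.35 TPM in number 2, and 0.780 and 0.860 TPM in number 1. Its expected counts were 212 and 159 in number 3, against 43 and 42 in number 1. The number 3 libraries were the highest of both constructs, and the log2 difference was 2.01 ± 0.23 (SE; edgeR adjusted p = 3.67e-06). H4C14 and H4C15, as the single measurement they are, rose by 1.87 ± 0.33 (edgeR adjusted p = 0.000215). H2AC25 rose by 1.11 ± 0.16 (edgeR adjusted p = 2.54e-05). H2AC6 had 6.77 (PTX4-OE) and 4.79 (EV) TPM in number 3, against 1.47 and 0.400 TPM in number 1, a log2 difference of 2.44 ± 0.36 (edgeR adjusted p = 3.85e-05).

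The remaining extended genes had fewer counts. H2BC26 had 133 (PTX4-OE) and 91 (EV) expected counts in number 3, 42 and 26 in number 2, and 14 and 13 in number 1, and a log2 difference of 2.92 ± 0.33 (edgeR adjusted p = 2.84e-06) between number 3 and number 1. H2BC5 rose by 1.73 ± 0.46, H2BC11 by 2.02 ± 0.59 and H2BC15 by 1.57 ± 0.49. The calls of H2BC5 and H2BC15 were lost without PTX4-OE replicate 1 (adjusted p = 0.105 and 0.223) and without PTX4-OE replicate 3 (0.129 and 0.259), and that of H2BC11 without EV replicate 3 (0.193), all by edgeR. H2BC18, the extended gene not called, had a log2 difference of 0.23 ± 0.50. The other 6 extended genes did not reach the count filter, and a gene that is high in 2 libraries only passes that filter more easily than a gene that is low in them, so the 9 of 10 is a count over the tested genes and not over all 16. Without the count filter, 15 extended genes could be fitted, of which 9 were higher and 0 lower. The share over all genes in that fit is not given here. H2AC6, H2BC11 and H2BC15 are named here after their values were seen.

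Of the 11 tested genes annotated to end at the stem-loop, 1 was higher in number 3 than in number 1, 2 were lower and 8 were not called, with a median log2 difference of -0.15. The shares over all genes tested were 25.8% higher and 28.7% lower. H2BC9 had 35 (PTX4-OE) and 35 (EV) expected counts in number 3, against 133 and 130 in number 1, and its log2 difference was -2.02 ± 0.24 (SE; edgeR adjusted p = 4.74e-06). H2AC20 fell by 0.78 ± 0.16 on the log2 scale (edgeR adjusted p = 0.000674). H2AC18 rose by 1.08 ± 0.24 (edgeR adjusted p = 0.0015), and by 0.70 when its counts were added to those of H2AC19 (adjusted p = 0.00475). H2AC18 is among the 5 genes with a poly(A) signal close behind the stem-loop, as is H1-2, whose log2 difference was -0.15 ± 0.23 and was not called. The 8 genes not called ranged from -1.49 for H3C15 to 0.93 for H2AC11. Their standard errors reached 0.88 (H2AC19), so not being called does not mean unchanged. Without the count filter, 44 such genes could be fitted, of which 3 were higher and 4 lower, and by limma on log2(TPM + 1) 3 of 15 were higher and 4 lower. Without EV replicate 1, 3 of 12 were higher and 3 lower by edgeR, and the median was 0.43. Shares over all genes in these alternative fits are not given here.

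**Figure D2:**
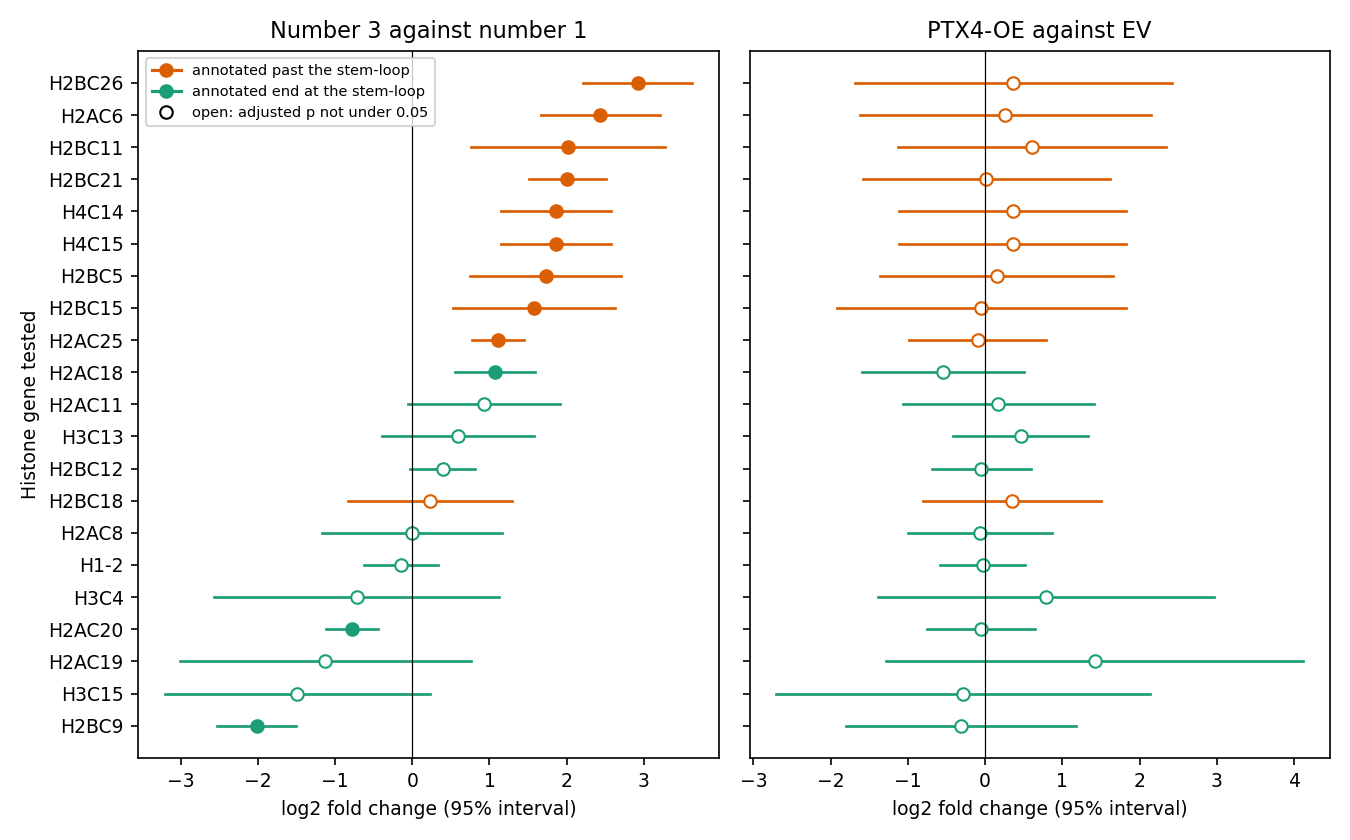
Log2 fold change with its 95% interval for the 21 tested histone genes, replicate number 3 against number 1 on the left and PTX4-OE against EV on the right (edgeR; filled points have an adjusted p under 0.05; orange, annotated past the stem-loop; green, annotated end at the stem-loop). On the left 9 of the 10 orange points are filled and above 0, and on the right no point is filled.

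The opposite movement was seen within a neighbouring pair. H2BC21 and H2AC20 are read in opposite directions from start sites 236 bases apart, on the promoter shown above. H2BC21 rose by 2.01 and H2AC20 fell by 0.78 between number 3 and number 1 on the log2 scale. H2AC25 and H2BC26, 230 bases apart at 1q42 and both extended, rose by 1.11 and 2.92. H2BC11, extended, and H2AC11, annotated to end at the stem-loop and 248 bases away, had differences of 2.02 and 0.93, the second not called (edgeR adjusted p = 0.104). These are the 3 of the 13 pairs with both genes tested. For the pair of H2BC12 and H2AC12, only H2BC12 was tested, with 0.39 ± 0.20.

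Summed over each class, the TPM values moved in opposite directions between the numbers, and on the TPM scale a pair of genes carried most of each movement. The 16 extended genes summed to 114 (PTX4-OE) and 85.8 (EV) TPM in number 3, 47.2 and 49.8 TPM in number 2, and 36.5 and 37.8 TPM in number 1, so number 3 was 3.11 times number 1 in PTX4-OE and 2.27 times in EV. The 49 genes annotated to end at the stem-loop summed to 103 and 107 TPM in number 3, 115 and 134 TPM in number 2, and 136 and 140 TPM in number 1, ratios of 0.762 in PTX4-OE and 0.765 in EV. In expected counts, not adjusted for length or depth, the ratios were 3.63 and 2.90 for the extended class and 0.952 and 0.900 for the other. H4C14 and H4C15 supplied 64.8 (PTX4-OE) and 40.5 (EV) TPM of the extended sum in number 3, against 13.7 and 13.7 TPM in number 1. Their values were scaled on a short length, given below, and whether their reads came from past the stem-loop was not tested. The other 14 extended genes summed to 48.9 and 45.4 TPM in number 3, against 22.9 and 24.1 TPM in number 1. In expected counts these 14 genes carried most of the rise, with 902 (PTX4-OE) and 711 (EV) in number 3, against 262 and 249 in number 1. The pair had 209 and 122 expected counts in number 3, against 44 and 38 in number 1. Of the class annotated to end at the stem-loop, H2AC20 and H2BC9 supplied 33.2 (PTX4-OE) and 32.6 (EV) TPM in number 3, against 71.1 and 68.8 TPM in number 1. The other 47 genes of that class summed to 70.2 and 74.2 TPM in number 3, against 64.6 and 70.8 TPM in number 1, so the class without those 2 genes was not lower. All 70 genes together had a ratio of 1.27 in PTX4-OE and 1.09 in EV on the TPM scale.

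Genes of the cell cycle moved with the replicate number too, where 28.7% of all genes tested were lower and 25.8% higher in number 3 than in number 1. Of 48 genes for DNA replication and the G1/S transition, 47 were lower and 1 higher in number 3 than in number 1 by edgeR, with a median log2 difference of -0.91, and their summed TPM in number 3 was 0.556 times that of number 1 in PTX4-OE and 0.561 times in EV. PCNA, the sliding clamp of the replication fork, had 131 (PTX4-OE) and 114 (EV) TPM in number 3, against 262 and 256 TPM in number 1. RRM2, a subunit of ribonucleotide reductase, fell by 1.25 ± 0.07 and TK1, thymidine kinase, by 1.19 ± 0.06 on the log2 scale (SE). All 25 genes of G2 and mitosis were lower, with a median of -0.89, among them CDC20, an activator of the anaphase-promoting complex, at -1.20 ± 0.07. All genes of both lists passed the count filter. Of 13 mitochondrial mRNAs, 7 were higher and 0 lower in number 3 by edgeR, with a median of 0.49; PTX4-OE replicate 1, which had the lowest mitochondrial level, is 1 of the 2 libraries of number 1. Of the 12 monocytic markers, 6 were lower and 0 higher, with a median of -0.19, among them LYZ, lysozyme, at -1.38 ± 0.15 and CSF1R, a macrophage growth factor receptor, at -0.76 ± 0.07. Without PTX4-OE replicate 1, 7 of 11 extended genes and 1 of 11 of the other class were still called higher, and 0 and 3 lower. The part of cell cycle position, mitochondrial RNA or monocytic state in the histone values was not tested.

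**Figure D3:**
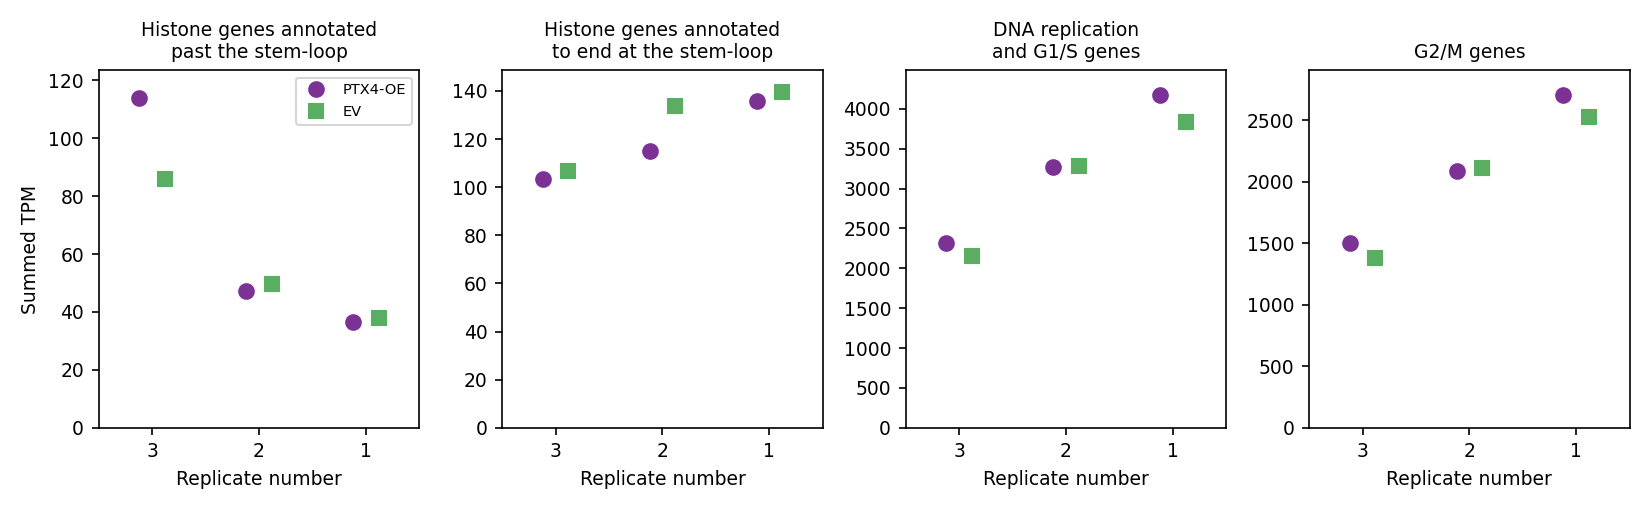
Summed TPM by replicate number, each panel with its own axis from 0, for the 16 extended histone genes, the 49 annotated to end at the stem-loop, 48 DNA replication and G1/S genes and 25 G2/M genes (purple circles PTX4-OE, green squares EV). In number 3 the first panel is highest, at 114 and 85.8 TPM, and the other 3 panels are lowest.

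The machinery that makes and ends histone mRNA was mostly lower in number 3 as well, beside 28.7% of all genes tested lower and 25.8% higher. Of 44 genes for 3′-end processing and turnover, 30 were lower and 4 higher in number 3 than in number 1 by edgeR, with a median log2 difference of -0.36. SLBP had 64.6 (PTX4-OE) and 58.9 (EV) TPM in number 3, against 108 and 103 TPM in number 1, a difference of -0.86 ± 0.06 (SE). LSM11, a U7-specific protein, fell by 0.27 ± 0.07, ERI1, the exonuclease that trims the histone stem-loop, by 0.59 ± 0.08, and LSM4, of the ring that takes part in mRNA decay, by 0.86 ± 0.06, while LSM10, the other U7-specific protein, was not called at -0.06 ± 0.09. Of 18 genes for histone gene transcription, 10 were lower and 3 higher, with a median of -0.29. NPAT, the coactivator of histone gene clusters, fell by 0.47 ± 0.08 and CCNE2, a cyclin whose kinase phosphorylates NPAT, by 1.09 ± 0.08. Of 26 histone chaperones and assembly factors, 21 were lower and 2 higher, with a median of -0.59, among them NASP, a carrier of H3 and H4, at -0.93 ± 0.06 and TONSL, which binds new H4, at -1.03 ± 0.06. SLBP, PCNA, LSM10, LSM11, ERI1 and NPAT are named for their known role, with their values seen.

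Replication-independent variants, whose genes mostly make tailed mRNA, differed among themselves. Of 13 tested, 7 were lower and 3 higher in number 3 than in number 1 by edgeR, with a median log2 difference of -0.46. Of all genes tested, 28.7% were lower and 25.8% higher. H2AZ1, a variant of H2A at promoters, had 515 (PTX4-OE) and 505 (EV) TPM in number 3, against 1175 and 1061 TPM in number 1, a difference of -1.21 ± 0.07 (SE). H2AX, the variant phosphorylated at DNA breaks and one of the other genes with the stem-loop, fell by 0.78 ± 0.06. Of the 6 replication-dependent genes listed for known polyadenylated forms in other cells, 5 were tested and 3 were higher. Of RNAs without tails, 5 of 30 were tested and RN7SL2, a signal recognition particle RNA, was higher in number 3 at 0.59 ± 0.20 (edgeR adjusted p = 0.0211), while RN7SL1 was not called at 0.33 ± 0.28. The part of untailed RNA carried along in the histone values was not tested. Between constructs, edgeR called 0 of the 209 tested genes of all lists, the markers and mitochondrial mRNAs included, and with the replicate block it called 3, MT-ND1, MPO and CSF1R, all lower in PTX4-OE.

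The deposited counts and FPKM together give, for each gene and library, the length by which the authors divided. FPKM is the count scaled for length and depth, so the ratio of the 2, at equal depth, returns a length. For H2BC21 this implied length was 1917 to 1949 bases in all 6 libraries, for H2AC20 192 to 215 bases and for H2BC9 161 to 183 bases. These are near constant and lie below the annotated 2224, 494 and 462 bases. For H4C14 and H4C15 the implied length was 97 to 118 bases, below the annotated 396 bases of their main transcripts, and not longer in number 3 of PTX4-OE. The length was compared for 12 of the genes with at least 0.5 FPKM in every library, those with the highest mean counts. For 5 of the 12 it was longer in number 3 than in number 1 in both constructs. H2BC26 had implied lengths of 2463 (PTX4-OE) and 1481 (EV) bases in number 3, against 675 and 594 bases in number 1. H2AC11 had 1961 and 748 bases in number 3, against 458 and 467 bases in number 1. H2AC11 is in the class annotated to end at the stem-loop, and its only annotated transcript has 493 bases. Both number 3 lengths exceed that. H2BC5 had 355 and 393 bases in number 3, against 259 and 272 bases in number 1. H2BC12 and H2AC25 were the other 2 such genes, with the longest value of 504 bases for H2BC12 in PTX4-OE replicate 3 and of 511 bases for H2AC25 in PTX4-OE replicate 2. Outside the 12, H2AC8 was shorter in number 3, with 252 (PTX4-OE) and 316 (EV) bases, against 402 and 666 bases in number 1. H2BC6 had 186 and 191 bases in number 3, against 186 and 510 bases in number 1. H4C12 was longer in number 3, with 244 and 218 bases, against 105 and 121 bases in number 1. The longest value of H2BC12 exceeded its annotated 495 bases, and that of H2AC8, in EV replicate 1, its annotated 517 bases. H3C4 had 1094 bases in PTX4-OE replicate 2, against an annotated 503 bases. These genes are likewise in the class annotated to end at the stem-loop. H1-2 and H2AC18, of that class too, stayed below their annotated lengths in all 6 libraries. Whether the authors' annotation holds longer transcripts for genes of that class was not tested.

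Where the divisor changed, counts and TPM gave different sizes of change, and for H2AC11 opposite directions. In PTX4-OE, H2BC11 had 0.240 TPM in number 3, against 0.760 TPM in number 1. In EV it had 0.810 TPM in number 3, against 0.160 TPM in number 1. For H2BC26 the fitted count in number 3 was 7.56 times that in number 1, while the mean TPM was 2.66 times as high. For H2BC11 the ratios were 4.05 in fitted counts and 1.14 in TPM, and for H2AC11 they were 1.90 and 0.886. For H2AC8, whose length was shorter in number 3, they were 0.997 and 1.99. For H2BC21, with a constant divisor, they were 4.02 and 4.27, and for H2BC9 0.247 and 0.258. The steps by which the authors set a gene's length are not given in the sources used here. In the limma fit on log2(TPM + 1), which understates changes of low genes, H2BC26 was called at 0.79, and H2BC11 and H2BC15 were not called.

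**Figure D4:**
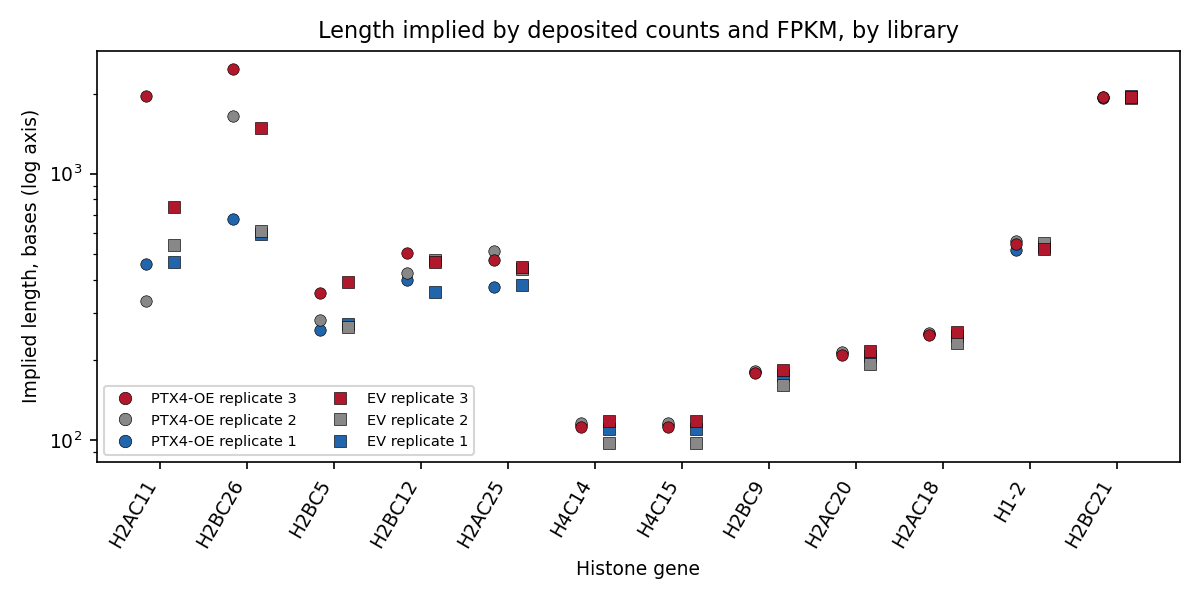
Length in bases implied by deposited expected counts and FPKM, on a log axis (circles PTX4-OE, squares EV, colour by replicate number). Shown are 12 of the histone genes with at least 0.5 FPKM in every library, those with the highest mean counts. The 2 replicate 3 points stand above the replicate 1 points for H2BC26 (2463 and 1481 against 675 and 594 bases) and H2AC11, and the 6 points of H2BC21 coincide near the top.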

How the data were processed

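Poly(A)-enriched RNA of 3 PTX4-OE and 3 EV THP-1 libraries was sequenced. The authors deposited expected counts per Ensembl gene, not normalized. They were made on GRCh38 with STAR and featureCounts after FastQC 0.11.5, per the submitters' processing notes. Neither annotation release nor strand setting is stated there. Some deposited counts are fractions and the length implied by counts and FPKM varies between libraries for some genes; whole-read counting per gene gives neither, and the step that made them is not stated, so values of near-identical copies are uncertain. The authors also deposited TPM, scaled for length to a sum per library, and FPKM, scaled for length and depth. Total expected counts were 29670641 to 37718207 per library.

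Symbols came from the Ensembl identifiers, and coordinates, transcript ends and stop codons from GENCODE release 44 on hg38. Histone genes and gene lists were chosen with earlier results of these data known. Rounded expected counts were fitted over all genes with edgeR 4.0.16 (filterByExpr, TMM, glmQLFit, glmQLFTest; R 4.3.3), with Benjamini-Hochberg adjustment at 0.05. Genes that pass through the libraries where they are high enter such a filter more readily. Constructs were compared without a block. The numbers were taken to pair the libraries from the correlation of deviations from the construct means over all tested genes. For same-numbered libraries it was 0.632, 0.131 and 0.698 for numbers 1, 2 and 3. For libraries of unlike number it was -0.642 to 0.117, the highest for EV replicate 2 with PTX4-OE replicate 1, so number 2 hardly stood out. The labels do not state what a number shares, and p-values measure the spread between these libraries. The pairing and the tests of replicate number rest on the same values. The biological coefficient of variation was 0.217 without and 0.056 with the block.

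Alternatives were the replicate block, DESeq2 1.42.0, no count filter, limma 3.58.1 on log2(TPM + 1), leaving out libraries or pairs, and summing near-identical pairs, the last chosen after seeing the data. Scripts were tested on simulated data. Genes named in every library were those past the construct test, the 3 highest of each family by mean TPM, the 3 highest and 3 lowest fold changes between constructs, the 4 smallest p for replicate number and, of each list, a few of its calls; others are marked where named. Implied length was the expected count over FPKM at equal depth. Genes with near-identical copies and overlapping or antisense genes are uncertain, H2BC18, H2BC4, H2BC6, H4C8 and H2AC21 having an annotated antisense neighbour. H2AC6, H2AC7, H2AC17, H2BC26, H3C4 and H3C12 overlap another annotated gene on the same strand. One result is not reported here.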

Additional observations from a re-analysis of the deposited data

Results flagged for a closer look

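H2AC19 moved in opposite directions between replicate numbers in the 2 constructs. It had 73.76 expected counts in PTX4-OE replicate 3, against 33.18 in PTX4-OE replicate 1, and 0.0 in EV replicate 3, against 49.59 in EV replicate 1. The difference between the constructs was not tested. Its near-identical neighbour H2AC18 had 124.28 and 68.79 counts in PTX4-OE and 172.18 and 58.84 in EV for the same replicates, and the 2 genes together had 198 and 102 counts in PTX4-OE and 172 and 108 in EV.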

How the results depend on the processing

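Between constructs, 0 histone genes were called in all alternatives but the fit with the replicate block and without replicate 1, which called 1, H2AC19. Without the block, leaving out 1 library gave 0 histone genes and 1 gene over the whole table each time. The calls over all genes, 1 as reported, were 46 with the replicate block, 3 by DESeq2, 2 without the count filter and 2 by limma, and, with the block and without replicate pair 1, 2 or 3, 80, 30 and 208. Of the listed genes, 0 as reported, the replicate block called 3, and 1 to 15 without 1 pair. The log2 fold change of H2BC9 became 0.0803 without PTX4-OE replicate 3, and that of H3C15 became 0.2951 without PTX4-OE replicate 3 and 0.3683 with the block and without replicate 3 (ranges without 1 library, -0.7631 to 0.0803 and -1.856 to 0.2951); the cause was not tested. The summed TPM differed between PTX4-OE and EV by -0.586%, and by -9.68% to 5.30% over the alternatives.

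For replicate number, 9 to 17 histone genes were called over the alternatives, against 13 as reported. Of the 12 called between number 3 and number 1, DESeq2 kept 11 (without H2BC15), limma 10 (without H2BC11 and H2BC15), and each fit without 1 library 10 to 12. Genes gained, all of them annotated to end at the stem-loop, were H2AC8, H3C13, H3C3 and H4C12 by limma, H2AC11, H2AC19, H3C14 and H3C15 without the count filter, H2AC11, H2BC12 and H3C15 without EV replicate 1, H3C15 without EV replicate 3, and H2AC19 without PTX4-OE replicate 1 or 3. With near-identical pairs added together, 8 of 9 extended genes were higher. Depth limits what can be said of the 49 genes that did not reach the count filter.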
